A study of Mus musculus with 54 samples.

Results

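Figla, Nobox, Lhx8, Sohlh1, Sohlh2, Taf4b and Tbpl2 encode transcription factors and components of the transcription machinery that work in germ cells. They were taken by symbol and are 7 of the 26264 genes of each count table. All 7 have a row in the table of each tissue. RNA of whole mouse gonads was sequenced, from testis at 35 days post-partum and from ovary at 30 days post-partum, in 54 libraries that form 18 groups of 3.

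The F1 animals came from dams given a mixture of drugs in the drinking water from 8.5 days post-coitum, and the progeny drank it until they were killed. The anti-inflammatory drug ibuprofen was at 11.3 ng/L in dose 1 and 113 ng/L in dose 2, its metabolite 2-hydroxyibuprofen at 90 and 225 ng/L, the anti-inflammatory drug diclofenac at 22.5 and 112 ng/L, and 17a ethinyl-estradiol, a synthetic estrogen, at 2.25 and 45 ng/L. The F1 control water held 0.001% ethanol. The F2 groups are crosses of F1 parents: a dose 1 mother with a control father (maternal dose 1 cross), a dose 2 mother with a control father (maternal dose 2 cross), a dose 1 father with a control mother (paternal dose 1 cross), a dose 2 father with a control mother (paternal dose 2 cross), 2 dose 2 parents (biparental dose 2 cross) and 2 control parents (control cross). The labels state no treatment of the F2 animals themselves. They do not give the strain, or whether the 3 libraries of a group came from separate animals or litters, so the p-values measure the spread between these libraries, which may be technical. An effect of the mother's germ cells and an effect of her pregnancy cannot be told apart in a maternal cross.

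In the mouse ovary these factors act from the formation of primordial follicles to the growing oocyte. SOHLH1 and SOHLH2 are basic helix-loop-helix proteins of spermatogonia and of the oocytes of primordial follicles, and loss of either in mice lowers the oocyte genes Nobox, Lhx8 and Figla. FIGLA, another basic helix-loop-helix protein, pairs with the ubiquitous E-protein TCF3 and binds E-boxes of the zona pellucida genes. NOBOX and LHX8 are homeodomain proteins of the oocyte nucleus, and NOBOX is described as an activator of Gdf9 and Pou5f1. TAF4B is a gonad-enriched subunit of the general factor TFIID, present in germ cells of both sexes and in granulosa cells. TBPL2 is the oocyte relative of the TATA-binding protein and takes its place in growing oocytes together with TFIIA.

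The sequences before the start sites are shown for the 4 genes whose windows hold at least 2 E-boxes, because the E-box is the motif that the basic helix-loop-helix members bind. Each window is the 250 bases upstream of the RefSeq start on build GRCm38.p6, on the strand of the gene, and capitals mark matches to CANNTG. The count tables were made on build mm39, so these coordinates belong to the RefSeq windows alone. Windows of 6 of the 7 genes were matched, and Taf4b is named only.
Sohlh1: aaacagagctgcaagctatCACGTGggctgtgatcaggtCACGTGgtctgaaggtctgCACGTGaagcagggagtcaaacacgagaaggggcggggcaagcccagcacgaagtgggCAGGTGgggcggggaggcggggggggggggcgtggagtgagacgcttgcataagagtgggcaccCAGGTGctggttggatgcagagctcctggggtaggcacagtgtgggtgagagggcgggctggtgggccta
Nobox: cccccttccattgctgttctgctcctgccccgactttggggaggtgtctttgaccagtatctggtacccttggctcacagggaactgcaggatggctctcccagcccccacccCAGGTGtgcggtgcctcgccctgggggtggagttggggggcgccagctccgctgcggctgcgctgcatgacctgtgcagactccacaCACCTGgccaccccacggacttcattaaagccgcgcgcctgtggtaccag
Figla: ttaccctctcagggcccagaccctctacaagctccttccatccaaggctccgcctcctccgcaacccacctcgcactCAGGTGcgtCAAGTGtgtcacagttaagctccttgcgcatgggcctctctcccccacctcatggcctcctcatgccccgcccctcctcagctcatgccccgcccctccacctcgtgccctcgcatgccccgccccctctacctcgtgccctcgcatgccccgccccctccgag
Tbpl2: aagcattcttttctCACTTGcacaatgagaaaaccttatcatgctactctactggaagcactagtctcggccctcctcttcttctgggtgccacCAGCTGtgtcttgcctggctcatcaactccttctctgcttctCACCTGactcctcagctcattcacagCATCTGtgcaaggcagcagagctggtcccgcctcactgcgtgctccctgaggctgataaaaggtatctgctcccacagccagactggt
The 4 windows lie at chr2:25847249-25847498 (minus strand, Sohlh1), chr6:43309555-43309804 (minus strand, Nobox), chr6:86016941-86017190 (plus strand, Figla) and chr2:24096596-24096845 (minus strand, Tbpl2).

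The Sohlh1 window held 5 E-boxes, and at least 5 stood in 1.15% of the 32851 RefSeq windows searched. Of these, 3 were CACGTG, starting 231, 211 and 192 bases upstream of the start, and at least 3 copies of CACGTG stood in 0.06% of windows. The other two were CACCTG or its reverse complement CAGGTG, at 134 and 70 bases. The Nobox window held 2 E-boxes, both of the CACCTG kind, at 137 and 50 bases, and at least 2 of that kind stood in 2.06% of windows. The Figla window held 2 E-boxes at 173 and 164 bases, against at least 2 in 31.81% of windows, and the Tbpl2 window held 4, against at least 4 in 3.84%. The Sohlh2 window held 1 and the Lhx8 window none. Both strands were searched, and since CANNTG includes CACGTG and CACCTG their matches overlap. Searches for TAATTG (the NOBOX element), TGATTG (bound by LHX8) and TATAAA found no match in the 6 windows, against a match in 7.2%, 12.7% and 12.4% of all windows. These matches describe letters and are not evidence of binding, and they were not set against the levels of the genes.

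Total counts per library were 36640553 to 57383270 in F1 ovary, 37912606 to 84721392 in F2 ovary, 31816283 to 122396602 in F1 testis and 31553824 to 48237343 in F2 testis. Levels are given as CPM, a standard unit of the count relative to the library total, scaled within each tissue and generation (scaled CPM). The defining markers of each tissue were present. Granulosa cell markers summed to 5492 to 10314 CPM in ovary libraries and 235 to 443 CPM in testis libraries, and spermatid markers to 8930 to 29562 CPM in testis. Spermatid markers were at 0.433 to 1.51 CPM in the F2 ovary libraries but at 12.9 to 98.4 CPM in 8 of the 9 F1 ovary libraries and at 1430 CPM in F1 ovary control A. That library stood alone on the first principal component of F1 ovary, which held 64.1% of the variance. F1 testis dose 2 B and dose 2 C stood at opposite ends of the first component, with the lowest (8930 CPM) and the highest (29562 CPM) spermatid sums. Among F2 ovary libraries, maternal dose 1 cross C and biparental dose 2 cross C stood apart, the second with the highest blood cell marker sum (1090 CPM). Fits and correlations were repeated without these libraries, and the values are given where they moved.

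In the ovary, Nobox and Taf4b gave the most reads and Tbpl2 and Sohlh2 the fewest. Over the 27 ovary libraries, Nobox was at 20.5 to 38.4 scaled CPM (median 31.3), Taf4b at 17.6 to 47.7 (median 31.2), Sohlh1 at 6.33 to 14.4 (median 9.01), Lhx8 at 5.62 to 11.3 (median 8.68) and Figla at 1.41 to 5.79 (median 3.06). Sohlh2 was at 0.896 to 2.38 scaled CPM (median 1.49) and Tbpl2 at 0.753 to 2.18 (median 1.36). Levels between genes can be compared only per length, and per kilobase of exon the order in ovary was Nobox (mean 15.1 scaled CPM per kb), Sohlh1 (7.36), Taf4b (6.09), Figla (3.85), Lhx8 (3.38), Tbpl2 (1.01) and Sohlh2 (0.642). The per-kilobase level of Nobox was 10.2 to 19.1 over the ovary libraries and that of Sohlh1 4.91 to 11.2, so the first and the second place overlapped in range. In testis the order per kilobase was Sohlh2 (5.82), Taf4b (5.37), Sohlh1 (3.71), Figla (1.2), Lhx8 (0.323) and Nobox (0.115), and Tbpl2 had no count. Exon lengths came from the GENCODE M21 annotation, which may differ from the one the counts were made with.

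Across the 9 ovary groups the order of the means was mostly within the spread between libraries. At most 1 of the 8 gaps between neighbouring group means exceeded the pooled SD for any of the 7 genes. The paternal dose 1 cross had the lowest mean of the 9 groups for Figla, Nobox, Lhx8, Sohlh1 and Sohlh2. The highest mean of Nobox was 34.7 scaled CPM in the maternal dose 2 cross and its lowest 24.6 in the paternal dose 1 cross, a ratio of 1.41. For the other genes that ratio was at most 1.66 (Sohlh1). Figla varied most among the 27 libraries, with a coefficient of variation of 32.9%, and Lhx8 least, at 16.6%.

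**Figure D1:**
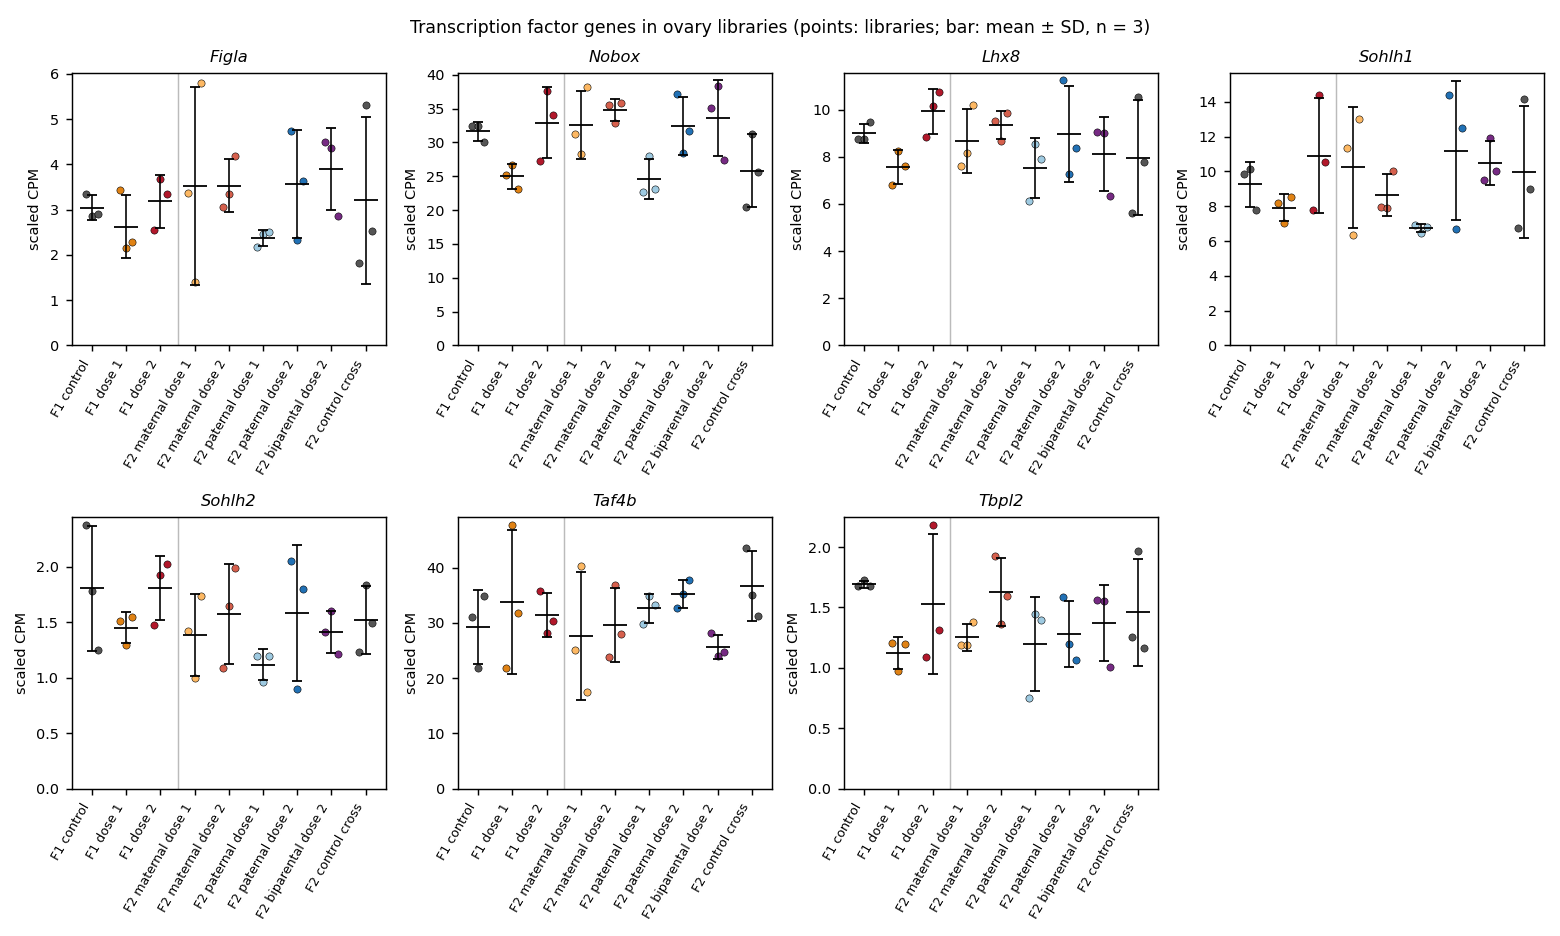
Scaled CPM (vertical axis) of the 7 genes in each ovary library, by group (horizontal axis), with a point per library and bars for the mean ± SD of 3 libraries. Nobox was at 23.0 to 26.7 in the F1 dose 1 libraries, below the other F1 libraries (27.3 to 37.5), and the paternal dose 1 cross has the lowest mean for 5 of the 7 genes.

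The 2 gonads were compared in their control libraries, 6 of ovary (F1 control and F2 control cross) and 6 of testis, in one fit of all 54 libraries. The fit sets its own scale across tissues, so its fold changes differ from the ratios of the scaled CPM, which are set within each tissue and generation. Nobox, Lhx8, Tbpl2, Figla and Sohlh1 were higher in ovary, Sohlh2 was lower, and the test called no difference for Taf4b. The edgeR quasi-likelihood test thus called 6 of the 7 genes at a Benjamini-Hochberg adjusted p under 0.05, in a comparison in which it called 89.8% of 20794 genes. Tissue goes with sex, age and count table here, and these cannot be told apart. In whole gonads, fewer cells of a type and less RNA per cell cannot be told apart either.

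Nobox was at 20.5 to 32.5 scaled CPM in the 6 control ovary libraries and at 0.0851 to 0.372 in the 6 control testis libraries, which are 4 to 16 counts. It was 96.8-fold higher in ovary (log2 fold change 6.60 ± 0.22 SE, adjusted p = 1.2e-27). Lhx8 was at 5.62 to 10.5 scaled CPM in control ovary and at 0.442 to 0.851 in control testis, and was 10.0-fold higher in ovary (log2 fold change 3.33 ± 0.16, adjusted p = 4.6e-22). These folds moved with the scaling. With relative log expression factors they were 75.5 for Nobox and 7.81 for Lhx8, and with no scaling 127 and 13.1. The ranges of the 2 tissues were far apart for both homeodomain genes.

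Tbpl2 had 62 to 103 counts in each control ovary library and no count in any testis library. Over the summed counts of the 6 control testis libraries, 3 counts would be 0.0123 CPM, so Tbpl2 (mean 1.57 CPM before scaling in control ovary) was at least 128-fold higher in ovary. With all 27 libraries of each tissue the same bound was at least 536-fold. The bound covers counting error only.

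Sohlh1 and Sohlh2, which can form a dimer, differed between the 2 gonads in opposite directions. Sohlh2 was at 1.23, 1.25, 1.49, 1.79, 1.84 and 2.38 scaled CPM in the control ovary libraries and at 12.0 to 15.2 in the control testis libraries, and was lower in ovary (log2 fold change -3.47 ± 0.16, adjusted p = 5.8e-23). Sohlh1 was at 6.75 to 14.2 scaled CPM in control ovary and at 3.31 to 6.77 in control testis, where the lowest ovary library just met the highest testis library. Its log2 fold change was 0.59 ± 0.22 (adjusted p = 0.0112). This call depended on the scaling, which moved the median of all genes by -0.37 under relative log expression (RLE) factors and by 0.38 with none (log2). With RLE factors Sohlh1 was at 0.23 (adjusted p = 0.332) and with no scaling at 0.98 (adjusted p = 4.3e-05). Relative to the median gene its difference was 0.58 to 0.59 under all 3.

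Figla was at 1.81 to 5.30 scaled CPM in control ovary and at 0.543 to 1.42 in control testis, and was 2.26-fold higher in ovary (log2 fold change 1.18 ± 0.29, adjusted p = 3.3e-04). The fold was 1.77 with RLE factors and 2.98 with no scaling. Taf4b was at 21.8 to 43.6 scaled CPM in control ovary and at 21.2 to 29.0 in control testis, which overlapped. Its log2 fold change was -0.13 ± 0.15 with TMM factors (adjusted p = 0.422), -0.49 with RLE factors (adjusted p = 0.00164) and 0.26 with no scaling (adjusted p = 0.123), so its sign and its call depended on the scaling. Relative to the median gene it was at -0.13 under all 3.

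**Figure D2:**
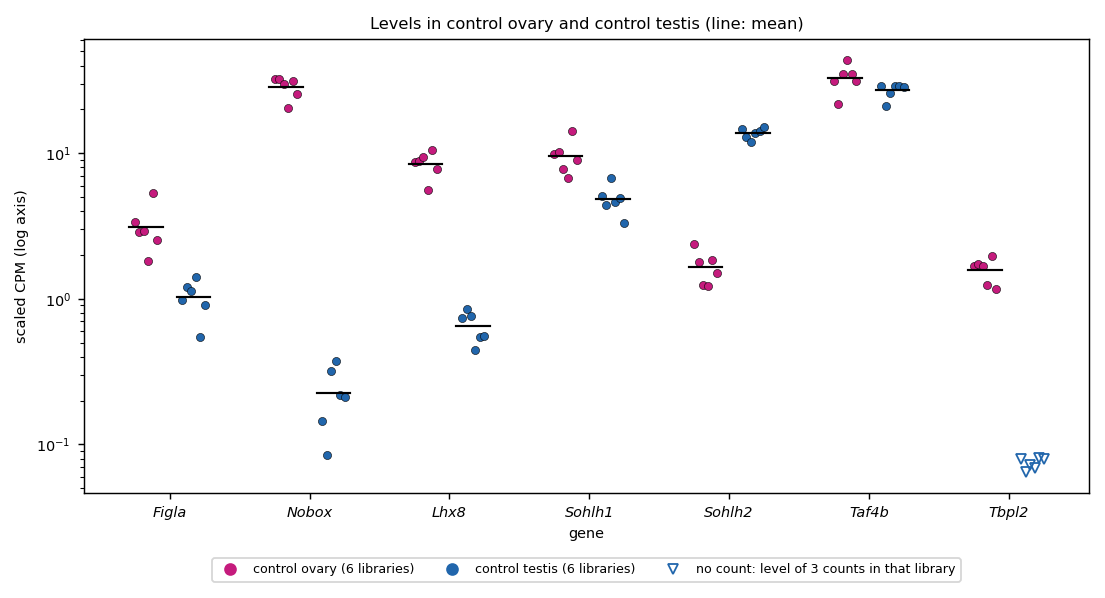
Scaled CPM on a log axis (vertical) of each gene (horizontal) in 6 control ovary libraries, left of 6 control testis libraries, with a line at the mean. Nobox, Lhx8 and Tbpl2 are separated widely with ovary above, Sohlh2 with ovary below, and the Taf4b libraries overlap; open triangles mark the level of 3 counts where Tbpl2 had none.

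Of 12 genes for known partners of these factors, 7 were higher and 5 lower in control ovary, and all 12 passed the same test. Since it called 44.8% of all genes higher and 45% lower, these counts are near the background, and the values below are a description. The dimer partners Tcf3, Tcf12 and Tcf4 of the helix-loop-helix proteins were higher in ovary (log2 fold changes 2.64, 2.00 and 2.24), as were the LIM-domain cofactors Ldb1 (3.02) and Ldb2 (3.31). Gtf2a1l and Taf7l, germ cell relatives of TFIIA and TFIID subunits, were lower in ovary (-5.74 and -6.20), as were Tbp (-2.52) and its relative Tbpl1 (-3.20). Taf4, the ubiquitous relative of Taf4b, was higher (1.12). All 8 genes described as NOBOX targets were higher in ovary, by 0.95 (Fgf8) to 12.84 (Bmp15) on the log2 scale, and the median of the list was 7.37, against 0.0069 over all genes tested. Of 20 oocyte markers, 19 were higher and 1 lower in ovary, all past the threshold. Of 15 other germ cell transcription factor genes tested, 3 were higher in ovary, with Foxo1 highest (5.46), and 11 lower, among them the spermatogonial and meiotic factors Dmrt1 (-8.36) and Stra8 (-9.16). Which cells of the whole gonads these transcripts came from, germ cells or others, was not tested.

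In F1 ovaries, no member was called at either dose, where the test called 0% of 17896 genes in each of the 3 comparisons. Nobox was at 25.2, 26.7 and 23.0 scaled CPM in the dose 1 libraries, against 32.4, 32.5 and 30.0 in the control libraries. Every dose 1 library lay below every control library. The log2 fold change was -0.34 ± 0.12 (edgeR unadjusted p = 0.018, adjusted p = 0.55), and without F1 ovary control A it was -0.33 (adjusted p = 1). Nobox was the 1 member of 7 with an unadjusted p under 0.05, as 8.33% of all genes tested had.

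Lhx8 was at 6.82, 8.26 and 7.63 scaled CPM in the dose 1 ovaries, against 8.76, 8.77 and 9.48 in the control ovaries. Tbpl2 was at 1.203, 0.974 and 1.198 scaled CPM in dose 1, against 1.68, 1.73 and 1.68 in control, or 46 to 69 counts against 62 to 87. These 2 genes and Nobox were the 3 of 7 members whose dose 1 libraries all lay below the control libraries, as did those of 5.5% of all genes. Figla, Sohlh1 and Sohlh2 had lower means in dose 1 with overlapping libraries, and Taf4b a higher one (33.8 against 29.3 scaled CPM). The lower mean of Sohlh2 went with F1 ovary control A, which was at 2.38 scaled CPM and held spermatid transcripts. The log2 fold change of Sohlh2 in dose 1 was -0.31 with that library and -0.08 without it.

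The oocyte markers lay lower in the same libraries. Their sum was 941 to 1144 CPM in the dose 1 ovaries, against 1324 to 1422 CPM in the control ovaries, with no overlap. All 20 markers had a lower mean in dose 1 and none passed, with a median log2 fold change of -0.40, against -0.0017 over all genes, and the same median without F1 ovary control A. Of the 8 NOBOX target genes, 4 of which are also in the oocyte marker list, 7 were lower and none passed (median -0.41), and of the partner genes 6 of 12 were lower and none passed (median 0.0059). The part of oocyte content in the lower Nobox, Lhx8 and Tbpl2 levels was not tested.

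At dose 2 the F1 ovaries were close to their controls in mean. Nobox was at 27.3, 37.5 and 34.0 scaled CPM in the dose 2 libraries, on both sides of its control values. Sohlh1 was at 7.80, 14.4 and 10.6 scaled CPM in the dose 2 libraries, against 9.84, 10.2 and 7.80 in the control libraries. It had the lowest p of the members, with a log2 fold change of 0.24 ± 0.22 (edgeR adjusted p = 0.896), and without dose 2 B its sign turned (-0.02). No member's dose 2 libraries all lay above or all lay below the control libraries, as those of 7.91% of all genes did. In the direct comparison of dose 2 with dose 1, Nobox and Lhx8 were higher in every dose 2 library, as were 5.7% of all genes, and neither passed (edgeR adjusted p = 0.809 for both). All 20 oocyte markers had higher means in dose 2 than in dose 1, with none passing. This comparison and the comparison of dose 1 with control share the dose 1 libraries.

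In F2 ovaries, no member was called in any of the 5 crosses against the control cross. The test called 0.00575% of 17400 genes in the paternal dose 1 cross and 0% in the other four. Nobox had the lowest p of the members in 4 of the 5 comparisons. With an exposed mother it was at 31.3, 28.3 and 38.2 scaled CPM at dose 1 and at 35.5, 32.9 and 35.8 at dose 2. With an exposed father it was at 22.7, 28.0 and 23.1 scaled CPM at dose 1 and at 37.1, 28.5 and 31.8 at dose 2. The biparental dose 2 cross had 35.2, 38.4 and 27.5 scaled CPM, and the control cross, against which all 5 were set, 20.5, 31.3 and 25.7. Only the maternal dose 2 cross lay wholly above the control cross, as it did for 6.8% of all genes.

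With a dose 1 mother the log2 fold change of Nobox was 0.34 ± 0.17 (edgeR adjusted p = 0.392), and with a dose 2 mother 0.43 ± 0.17 (adjusted p = 0.722). With a dose 2 father it was 0.33 ± 0.17 (adjusted p = 1), and with both parents at dose 2 it was 0.38 ± 0.17 (adjusted p = 0.546). These comparisons share the 3 control cross libraries, of which A was at the lowest Nobox level of the 27 ovary libraries. Without maternal dose 1 cross C and biparental dose 2 cross C, the values of the maternal dose 1 and the biparental dose 2 cross were 0.20 and 0.51, with adjusted p = 0.948 and 0.46. The F1 control ovaries, of another fit and scaling, were at 30.0 to 32.5, within the range of these 4 crosses. Whether the differences come from the control cross was not tested.

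The oocyte markers stood higher in the same crosses. All 20 had a higher mean in the maternal dose 2 (median log2 fold change 0.33), paternal dose 2 (0.19) and biparental dose 2 (0.34) crosses. Of the dose 1 crosses, the maternal one had 16 of 20 higher (0.23) and the paternal one 10 of 20 (0.02). None of them passed in any cross. Without maternal dose 1 cross C and biparental dose 2 cross C, the median was 0.06 in the maternal dose 1 cross, with 15 of 20 higher, and 0.45 in the biparental dose 2 cross, with 20 of 20 higher. Their sum was 979 to 1609 CPM in the paternal dose 1 cross and 1374 to 1890 CPM in the other four, against 987 to 1800 CPM in the control cross. The sums thus overlapped, and their part in the Nobox levels was not tested. All 8 NOBOX target genes had higher means in those 4 crosses (6 of 8 in the maternal dose 1 cross without its library C), again with none passing, and the comparisons share the control cross libraries.

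In the paternal dose 1 cross all 7 genes had a lower mean than in the control cross. Sohlh1 was at 6.92, 6.48 and 6.82 scaled CPM there, against 6.75, 14.2 and 9.01 in the control cross. Its 3 libraries lay close together, at the low end of the control range, and the log2 fold change was -0.56 ± 0.30 (edgeR adjusted p = 1). Sohlh2 was at 1.2, 0.958 and 1.2 scaled CPM, below the control cross at 1.23, 1.84 and 1.49, as were the libraries of 6.4% of all genes. Figla was at 2.16, 2.45 and 2.51 scaled CPM in the paternal dose 1 cross, against 1.81, 5.30 and 2.52 in the control cross, so the control cross spanned a wider range than the cross set against it.

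Taf4b had its lowest group mean of the 9 ovary groups in the biparental dose 2 cross and its highest in the control cross. In the biparental dose 2 cross it was at 28.2, 24.1 and 24.7 scaled CPM, all below 43.6, 35.1 and 31.2 in the control cross, as were the libraries of 7.6% of all genes, and it did not pass (edgeR adjusted p = 0.546); it was chosen for mention after its values were seen. The 2 libraries of lowest and highest Taf4b in ovary were maternal dose 1 cross C (17.6) and F1 dose 1 B (47.7). Between the maternal and the paternal crosses of 1 dose no member was called, where the test called 0.00575% of genes at dose 1 and 0% at dose 2. Nobox was higher in every maternal dose 1 library than in every paternal dose 1 library, as were 6.89% of all genes.

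**Figure D3:**
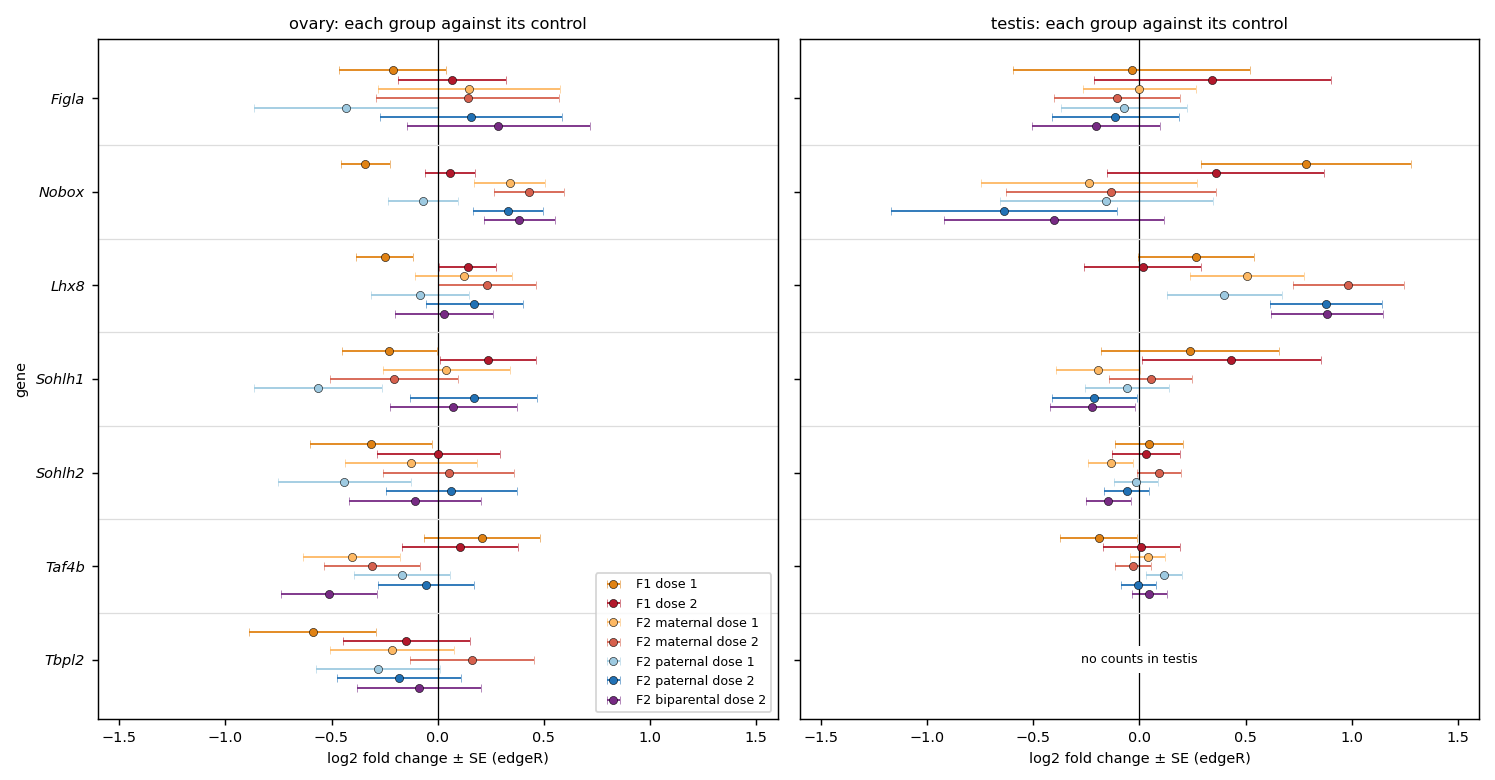
Log2 fold change ± SE (horizontal axis, from edgeR) of each gene (vertical axis) for each exposed group or cross against the control of its tissue and generation, for ovary (left) and testis (right). None passed an adjusted p of 0.05; Nobox in ovary ran from -0.34 in F1 dose 1 to 0.43 in the F2 maternal dose 2 cross, and Lhx8 in F2 testis lay above 0 in all 5 crosses.

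In testis, Taf4b and Sohlh2 were the steadiest members, at 20.9 to 33.3 scaled CPM (median 28.4) and 11.1 to 16.1 (median 13.8) over 27 libraries. Sohlh1 was at 2.99 to 12.97 (median 4.11), Figla at 0.344 to 2.71 (median 0.959), Lhx8 at 0.442 to 1.18 (median 0.845) and Nobox at 0.0637 to 0.372 (median 0.217). Nobox had 2 to 32 counts in a testis library, so its differences there could hardly be read at this depth. The strand setting of the counting is not given in the sources used here, and with such low counts reads of overlapping or antisense transcripts cannot be told apart from reads of the gene.

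In F1 testis no member was called at either dose, where the test called 0.021% of 19025 genes at dose 1, 0.00526% at dose 2 and 0.0263% between the doses. Nobox had the lowest p at dose 1, with 15, 10 and 32 counts in the dose 1 libraries, against 6, 4 and 13 in the control libraries, and a log2 fold change of 0.79 ± 0.49 (edgeR adjusted p = 0.998). Dose 1 C held 122396602 counts, so its 32 counts were 0.265 scaled CPM, below 0.318 in control C. At dose 2, Sohlh1 was at 5.49, 3.55 and 12.97 scaled CPM, against 5.08, 4.43 and 6.77 in the control testes. Its log2 fold change was 0.43 ± 0.42 (edgeR adjusted p = 0.982). It was -0.26 without dose 2 C and 0.01 without dose 2 B and C, so its sign rested on dose 2 C. Figla showed the same order, at 1.203, 0.344 and 2.71 scaled CPM in dose 2, against 0.983, 1.21 and 1.12 in control, with dose 2 B lowest and dose 2 C highest of the 27 testis libraries. Those 2 libraries are also the lowest and the highest in spermatid markers.

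**Figure D4:**
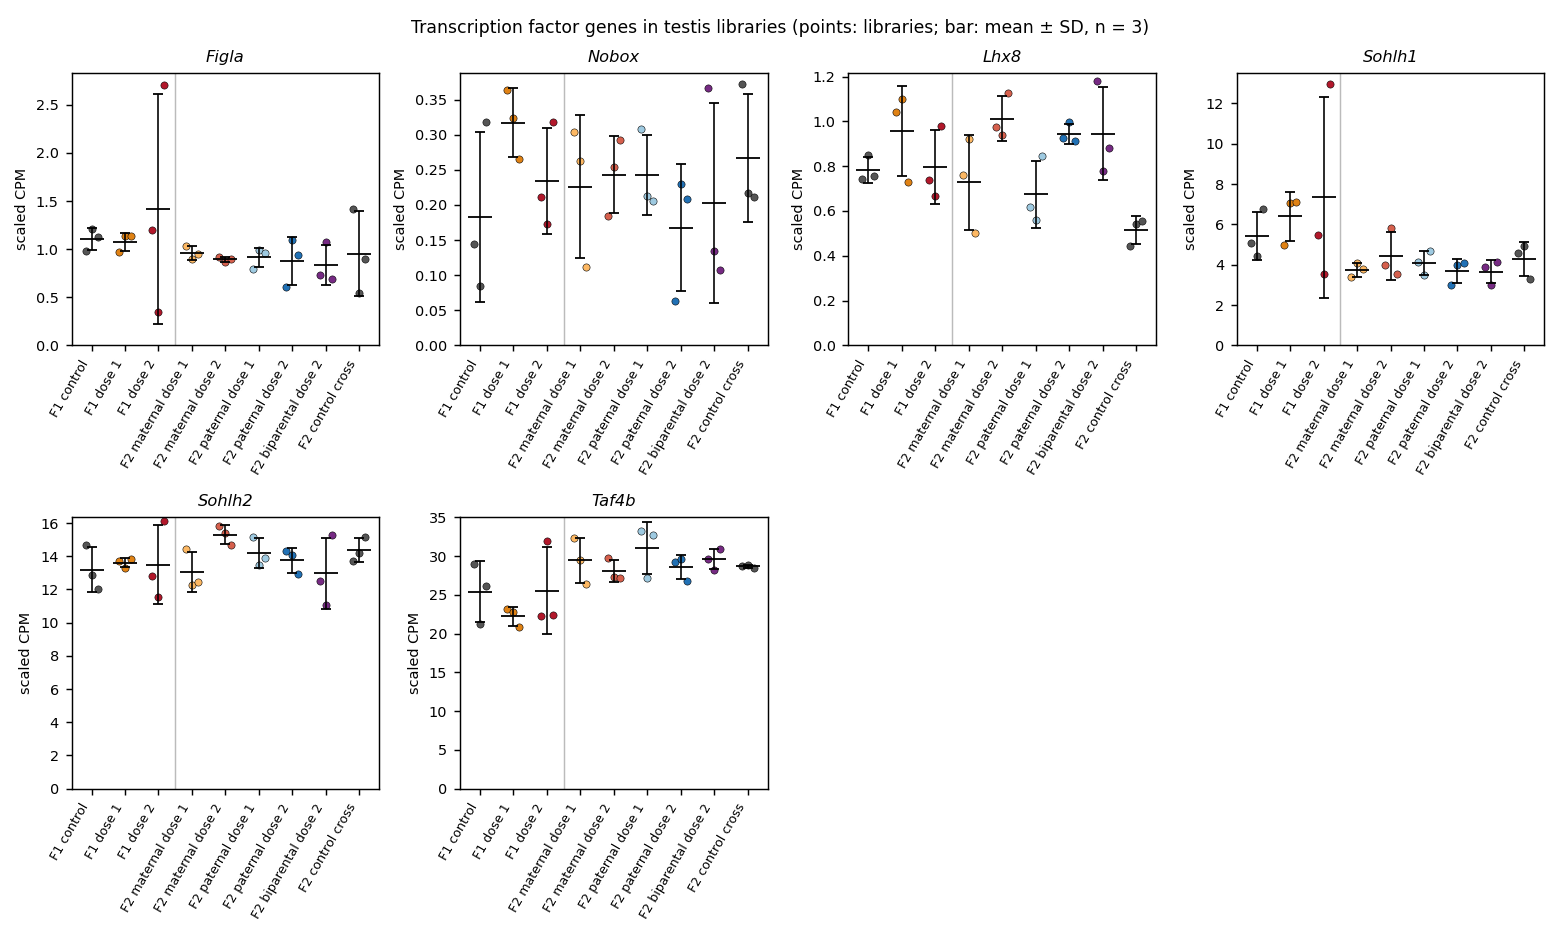
Scaled CPM (vertical axis) of the 6 genes with counts in testis in each testis library, by group (horizontal axis), with a point per library and bars for the mean ± SD of 3 libraries. Lhx8 was lowest in the F2 control cross (0.442 to 0.556), and F1 dose 2 C is the highest point for Figla and Sohlh1.

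In F2 testis, Lhx8 had the lowest p of the members in each of the 5 comparisons with the control cross and was not called in any of them. With an exposed mother it was at 0.759, 0.920 and 0.502 scaled CPM at dose 1 and at 0.974, 0.938 and 1.12 at dose 2. With an exposed father it was at 0.615, 0.560 and 0.845 scaled CPM at dose 1 and at 0.923, 0.995 and 0.912 at dose 2. The biparental dose 2 cross had 1.18, 0.777 and 0.882 scaled CPM, and the control cross 0.442, 0.543 and 0.556. In counts these are 18 to 54 in the crosses with an exposed parent and 19 to 21 in the control cross. All libraries of 4 crosses lay above the control cross, and those of the maternal dose 1 cross did not. For the paternal dose 1 cross this was close to a tie. Its library B (0.560) and control cross C (0.556) each held 21 counts. The share of all genes whose libraries lay wholly above the control cross was 10.9% in the maternal dose 2 cross, 8.65% in the paternal dose 1 cross, 5.17% in the paternal dose 2 cross and 5.96% in the biparental dose 2 cross.

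With a dose 2 mother the log2 fold change of Lhx8 was 0.98 ± 0.26 (edgeR adjusted p = 0.12), where the test called 0.372% of 19379 genes. With a dose 2 father it was 0.88 ± 0.26 (adjusted p = 0.909, 0.00516% of genes called), and with both parents at dose 2 it was 0.88 ± 0.26 (adjusted p = 0.495, 0.0155% called). In the dose 1 crosses it was 0.51 ± 0.27 (maternal, adjusted p = 0.763, 0.0103% of genes called) and 0.40 ± 0.27 (paternal, adjusted p = 0.572, 0.201% called). These comparisons share the 3 control cross libraries. The F1 control testes, of another fit, were at 0.743, 0.851 and 0.758 scaled CPM, which is among the values of the F2 crosses and above their control cross. The 20 oocyte markers summed to 39.9 to 46.8 CPM in the testes of the crosses with an exposed parent, against 45.9 to 49.9 CPM in the control cross. In the F1 testis fit without dose 2 B and C, only 10 of these markers passed the count filter. Which markers and which cells made up the sum in testis was not tested.

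The other members were not called in F2 testis either. Nobox, with few counts, had log2 fold changes of -0.64 to -0.13 against the control cross (SE 0.50 to 0.53, edgeR adjusted p of 0.929 to 0.99). The log2 fold changes of Figla, Sohlh1, Sohlh2 and Taf4b against the control cross lay between -0.22 and 0.12, with no adjusted p under 0.5. Sohlh2 was at 15.8, 15.4 and 14.7 scaled CPM in the maternal dose 2 cross, above 14.3, 14.1 and 12.9 in the paternal dose 2 cross, as 11.2% of all genes were in that comparison, and it did not pass (edgeR adjusted p = 0.499). The test called 0.119% of genes there and 0.0413% between the maternal and the paternal cross at dose 1. Of 1604 tests of genes of the related lists in the comparisons with a control, 1 passed. It was in the testis of the paternal dose 1 cross, where the test called 39 of 19379 genes (0.201%). Kit, the receptor of kit ligand on spermatogonia and oocytes, was higher in the testis of the paternal dose 1 cross than in the control cross (log2 fold change 0.45 ± 0.07, edgeR adjusted p = 0.0165). The call held in 5 of 12 alternatives, in which the log2 fold change was 0.42 to 0.49 throughout and the adjusted p 3.4e-05 (DESeq2) to 0.943 (one fit of all 27 testis libraries). It was lost with any of the 3 control cross libraries or paternal dose 1 cross B or C left out (adjusted p of 0.0541 to 0.124).

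Over all 20 comparisons between exposure groups or crosses, none of the 130 tests of the members passed, and 10 had an edgeR unadjusted p under 0.05. That is 7.69% of the tests of the members, against 7.68% of the 368216 gene tests, so the members stood at the background. DESeq2 called none of the 117 tests to which it gave an adjusted p; it gave none to the other 13, among them Lhx8 in F2 testis of the maternal dose 2 cross (log2 fold change 0.99, DESeq2 unadjusted p = 0.00302). Of the 10 tests, 7 were against a control: 3 of Nobox in ovary, 3 of Lhx8 in testis and 1 of Taf4b in ovary. Whether an effect differed between the gonads was tested in the fit of all 54 libraries for the 6 genes with counts in both. None of 42 interaction tests passed, and 5 had an edgeR unadjusted p under 0.05, which is 11.9% against 7.73% of all gene tests of this kind. The lowest adjusted p was that of Nobox in F1 at dose 1, where the difference of effects (ovary minus testis) was -1.10 ± 0.43 on the log2 scale (edgeR adjusted p = 0.131), with the few testis counts given above. That contrast called 7.26% of all genes, against 0.00481% in the contrast of the biparental dose 2 cross and 0% in the other five. Without F1 ovary control A, which held spermatid transcripts, it called 0 genes and the difference for Nobox was -1.12 (adjusted p = 0.898).

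The members were then compared with each other across the 27 ovary libraries, as a description in which the points share groups and a scaling, and which carries no test. The 15 pairs among the 6 genes other than Taf4b had Pearson r of 0.37 to 0.825 (median 0.64) on log2 CPM. Within groups, after each group's mean was taken off, r was 0.21 to 0.86, and without the 3 ovary libraries that stood apart it was 0.31 to 0.825. Figla with Sohlh1 (0.82) and Nobox with Lhx8 (0.81) were the closest pairs. Taf4b ran the other way, with r of -0.54 to -0.15 with the other six. With the summed oocyte markers, r was 0.85 for Nobox, 0.70 for Lhx8, 0.68 for Figla, 0.62 for Tbpl2, 0.49 for Sohlh1, 0.20 for Sohlh2 and -0.32 for Taf4b. Without the 3 ovary libraries that stood apart, it was 0.45 to 0.85 for the first 5 of these genes, 0.19 for Sohlh2 and -0.24 for Taf4b. Sohlh2 had higher r with summed spermatocyte (0.50) and spermatid markers (0.43) in ovary. These were 0.51 and 0.31 without the libraries that stood apart, and 0.38 and 0.35 within groups. The cause was not tested.

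**Figure D5:**
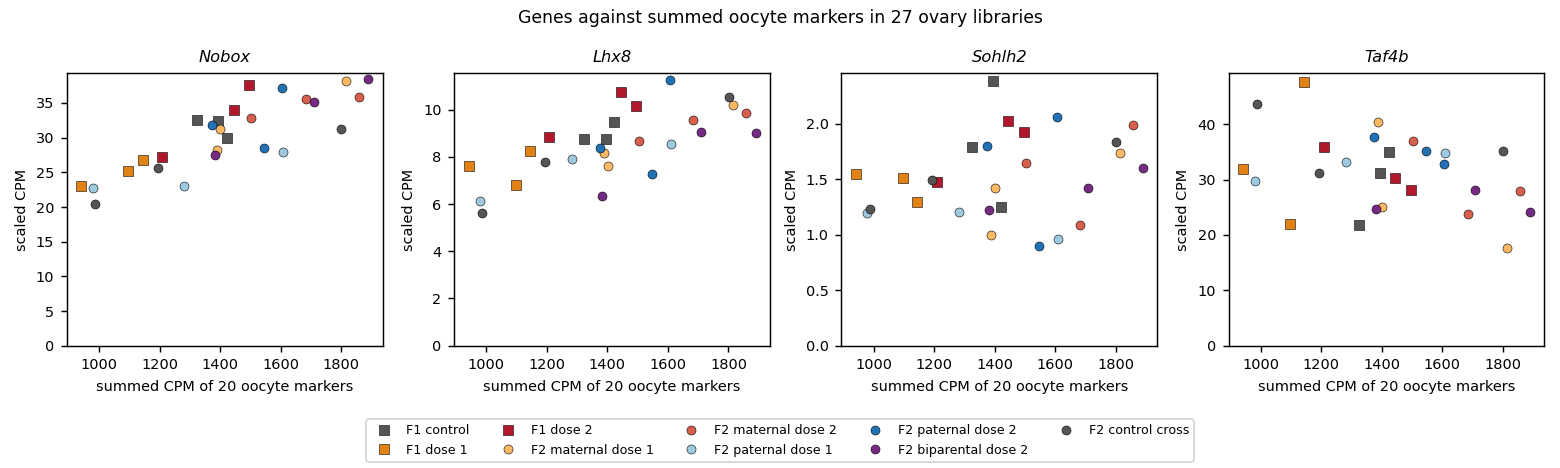
Scaled CPM of Nobox, Lhx8, Sohlh2 and Taf4b (vertical axes) against the summed CPM of 20 oocyte markers (horizontal axis) in the 27 ovary libraries, with squares for F1 and circles for F2. Nobox and Lhx8 are higher in the libraries with more oocyte marker RNA (r of 0.85 and 0.70), while Sohlh2 and Taf4b are not (0.20 and -0.32).

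The genes most like each member were sought among the 14039 genes that averaged 1 CPM or more over the ovary libraries. Zp2, which encodes a zona pellucida protein, was the closest gene to Nobox (r = 0.91) and to Tbpl2 (0.78) and the second closest to Lhx8 (0.84). Nobox was followed by Padi6 (0.87), an oocyte protein of the cytoplasmic lattices, and Mtmr14 (0.86), a phosphoinositide phosphatase. Figla was closest to Ooep (0.84), of the subcortical maternal complex, to Sohlh1 (0.82) and to Dppa3 (0.82), a maternal-effect gene. Lhx8 was closest to Esrp1 (0.84), an RNA splicing regulator, and Sohlh1 to Th (0.84), which encodes tyrosine hydroxylase. Sohlh2 was closest to Gdpd1 (0.84) and Adad2 (0.82). Taf4b was closest to Ss18 (0.84), a subunit of BAF chromatin remodellers, and to the kinase gene Mapk9 (0.82), neither of which is in the oocyte marker list, as Zp2, Padi6, Ooep and Dppa3 are.

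In testis the pattern of Sohlh1 was closest to Cinp, Pithd1 and Ensa (r of 0.92, 0.92 and 0.91, and of 0.86, 0.85 and 0.86 without F1 dose 2 B and C). Taf4b was closest to Gpm6b, Zfp207 and Lama1 (0.93, 0.92 and 0.92) and had r of 0.84 with summed spermatocyte markers and -0.76 with summed spermatid markers (0.84 and -0.74 without F1 dose 2 B and C). Its r was -0.83 with summed spermatogonia markers and 0.73 with summed Sertoli cell markers (-0.88 and 0.77 without those libraries). With summed granulosa cell and oocyte markers it was -0.57 and -0.21 (-0.55 and 0.04 without them). Within groups, the r of Taf4b was lower with Sertoli cell markers (0.39) and nearer 0 with granulosa cell markers (-0.33). With oocyte markers it was -0.60 within groups. With spermatocyte, spermatid and spermatogonia markers it was 0.75, -0.63 and -0.75. Figla was closest to Fhit (0.82), with r of 0.66 without F1 dose 2 B and C. For Sohlh2 and Lhx8 no gene exceeded r of 0.67 and 0.59 over the 27 libraries. Without F1 dose 2 B and C, Sohlh2 had r of 0.68 with Ube2e1, and Lhx8 had r of 0.66 with Cnr1.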

How the data were processed

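Each tissue has 1 deposited table of whole-number read counts by gene, not normalized, with 27 libraries. The submitters' processing notes list the build mm39 and, with no account of their settings, the read tools bcl2fastq 2.20 and FastQC 1.19, the aligners TopHat2 2.1.1 and Bowtie2 2.4.5, as well as SAMtools 1.13, the read counter featureCounts 2.0.3 and the testing package DESeq2 1.32.0. Per the labels' protocols, libraries came from a stranded mRNA ligation kit, with reads of 100 nt. The sources used here do not give the annotation or the strand setting, so counts of overlapping, antisense or paralogous genes are uncertain. All columns were mapped to samples (0 left over).

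Counts were fitted with edgeR 4.0.16 (R 4.3.3) by quasi-likelihood F tests, with trimmed mean of M values (TMM) factors, filterByExpr at a minimum count of 10 and Benjamini-Hochberg adjustment over all genes tested at 0.05. Each tissue and generation had its own fit (17896, 17400, 19025 and 19379 genes in F1 ovary, F2 ovary, F1 testis and F2 testis); the tissue comparison and interactions used 1 fit of 54 libraries (20794 genes). Tbpl2 failed the filter in testis. Scaled CPM are edgeR's CPM of the counts, with TMM factors within a tissue and generation, and log2 CPM used a prior count of 2. Marker lists are summed scaled CPM. The edgeR fit with TMM factors was tested on simulated data, for the first contrast of each tissue and generation and for the tissue comparison. The interactions and the alternatives were not tested in this way.

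The members and lists were chosen with earlier results of these data known. All members are described. A log2 fold change with its error is given where a member passes. Otherwise it is given for the member of lowest p in each comparison with a control. Beyond this rule, log2 fold changes are given for Sohlh2 in F1 ovary at dose 1 and for the members other than Lhx8 in F2 testis. Likeness is Pearson r of log2 CPM over 27 libraries, naming the leading genes with at least 1 CPM and no predicted-gene symbol. Alternatives were DESeq2 1.42.0, other scaling, no count filter, other sets of libraries in the fit, each replicate left out and a replicate block. No 2 replicates were as alike as counting error alone would leave them (chi-square over its degrees of freedom at least 7.43).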

Additional observations from a re-analysis of the deposited data

How the results depend on the processing

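The count of members called was the same under 272 of 273 alternatives: 0 in every comparison between exposure groups or crosses, with DESeq2 giving no adjusted p to 13 of 130 tests, and 6 between the tissues. Without F2 ovary control cross B it was 5 between the tissues, since Sohlh1 was lost. With RLE factors and with DESeq2 the 6 held Taf4b in place of Sohlh1, with 4 higher and 2 lower in ovary, against 5 higher and 1 lower with TMM factors. Of 288 alternative log2 fold changes of the members named by their test, 283 kept their direction and side of the threshold. Sohlh1 between the tissues missed the threshold with RLE factors (0.227), with DESeq2 (0.227) and without F2 ovary control cross B (0.433, adjusted p = 0.0627). With each replicate left out in turn, Sohlh1 at dose 2 against control ranged from -0.0159 (without dose 2 B) to 0.433 in F1 ovary and from -0.26 (without dose 2 C) to 0.766 (without dose 2 B) in F1 testis; the cause was not tested. Lhx8 in F2 testis of the maternal dose 2 cross ranged from 0.88 to 1.04 with adjusted p of 0.0782 to 0.549, and DESeq2 gave it none.

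Whether the letters of the replicates pair the samples cannot be told from the labels. Every pair's correlation of deviations was over 0.1 in 1 of 20 comparisons (range -0.58 to 0.45), which does not decide it. With the replicate block, 0 members were called in every comparison between exposure groups or crosses and 6 between the tissues. The adjusted p of Lhx8 in the maternal dose 2 cross was 0.0782 in that edgeR fit. In F2 testis the block took all genes called from 72 to 297 in the maternal dose 2 cross against the control cross. It took them from 23 to 280 between the maternal and paternal crosses at dose 2, and from 2 to 0 in the maternal dose 1 cross. The number of all genes called moved by over 1.5 times in 94 of 269 alternatives; DESeq2 called 8 to 57 in F1 ovary, 2 to 43 in F2 ovary, 5 to 27 in F1 testis and 8 to 477 in F2 testis, against 0, 0 to 1, 1 to 5 and 1 to 72 with edgeR. In F2 ovary, 1360 genes were called in the maternal dose 1 cross without its replicate A. Depth limits Nobox, Lhx8 and Figla in testis and Tbpl2 and Sohlh2 in ovary. Over the 27 ovary libraries, Tbpl2 had 1742 counts, with at most 103 per library, and Sohlh2 had 1913. The fits without the libraries that stood apart, and for the tissues those with no scaling and with the F2 control crosses alone, were chosen after the data were seen, and no member was called in the first of these between exposure groups or crosses.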
